A study of Mus musculus with 2 samples.

Results

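Enterochromaffin cells are the serotonin-producing hormone cells of the gut lining. Among the kept cells of 2 single-cell libraries of mouse colon epithelium they were taken as those with at least 2 UMIs of Tph1 and at least 2 UMIs of Chga. A UMI, or unique molecular identifier, stands for 1 captured RNA molecule. By this rule 161 of 13529 kept cells were enterochromaffin cells, of which 57 were in the GFP library and 104 in the whole epithelium library. Since counts of Tph1 and Chga chose the cells, their excess over other cells is a description and not a finding.

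Cells of the GFP library were sorted from mice of the genotype c-Kit-creERT2;Rosa26-mTG, which had received 1 mg of tamoxifen per 20 g of body weight in 1 injection into the peritoneum. In these mice the recombinase is driven by the Kit gene, so that after tamoxifen cells using that gene, and the cells that descend from them, carry GFP, and the sort took GFP-positive cells. The whole epithelium library came from c-Kit-creERT2 mice with no treatment and no GFP sort. Both groups thus carry the c-Kit-creERT2 allele, and each group is 1 library of colon, with age, sex and number of mice not stated in the labels. Genotype, tamoxifen, sort and library cannot be told apart in any difference between the groups, and no value has a replicate check. Intervals are 95% intervals for counting error only.

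Serotonin is made from tryptophan in 2 enzyme steps, the first and rate-limiting one by Tph1 in the gut and the other by Ddc. Slc18a1, also called VMAT1, loads it into dense-core granules, which are packed with the granins Chga and Chgb and released on entry of calcium. Enterochromaffin cells sense touch, nutrients and microbial products, among them through the channel Piezo2, and their serotonin acts on gut nerves and muscle. Some of them also make the peptides Tac1, which gives substance P, and Sct, secretin.

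Promoter windows of the genes that name the cell type are shown because these 3 genes mark the same cells. Each runs from 250 bases before to 50 bases after a RefSeq transcription start on build GRCm38.p6. Capitals mark TGACG or its complement CGTCA, the core of the cAMP response element. Tph1 has 2 listed starts, both on the minus strand, at chr7:46672488-46672787 and chr7:46667328-46667627, and the sequences are given on that strand. Those of Chga at chr12:102554691-102554990 and Chgb at chr2:132781392-132781691 are on the plus strand.
Tph1 at chr7:46672488-46672787: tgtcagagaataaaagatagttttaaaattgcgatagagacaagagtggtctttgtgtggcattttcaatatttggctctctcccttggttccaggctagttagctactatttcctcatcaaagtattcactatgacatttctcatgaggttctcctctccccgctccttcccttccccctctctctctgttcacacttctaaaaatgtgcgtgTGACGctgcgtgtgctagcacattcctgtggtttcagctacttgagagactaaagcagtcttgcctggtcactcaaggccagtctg
Tph1 at chr7:46667328-46667627: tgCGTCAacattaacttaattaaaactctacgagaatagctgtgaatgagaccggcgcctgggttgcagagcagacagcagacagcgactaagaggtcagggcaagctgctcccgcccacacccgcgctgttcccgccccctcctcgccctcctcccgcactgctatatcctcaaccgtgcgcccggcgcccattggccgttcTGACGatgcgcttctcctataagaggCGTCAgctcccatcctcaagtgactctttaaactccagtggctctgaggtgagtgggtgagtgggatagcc
Chga: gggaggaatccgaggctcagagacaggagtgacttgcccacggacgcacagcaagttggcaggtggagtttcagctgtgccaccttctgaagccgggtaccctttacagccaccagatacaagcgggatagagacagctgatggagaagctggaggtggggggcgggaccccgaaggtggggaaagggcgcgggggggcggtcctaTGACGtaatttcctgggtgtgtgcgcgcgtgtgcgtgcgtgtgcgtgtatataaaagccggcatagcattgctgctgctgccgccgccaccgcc
Chgb: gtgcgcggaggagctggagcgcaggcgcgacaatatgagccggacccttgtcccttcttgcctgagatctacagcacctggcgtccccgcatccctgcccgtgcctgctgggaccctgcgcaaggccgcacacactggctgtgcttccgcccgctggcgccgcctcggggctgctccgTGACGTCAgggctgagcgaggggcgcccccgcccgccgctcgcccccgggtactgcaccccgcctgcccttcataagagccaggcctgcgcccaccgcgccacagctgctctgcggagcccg
All 4 windows hold the letters TGACG on at least 1 strand, against 20.8% of 32851 windows of the same length. In Chgb the matches on both strands overlap in the full palindrome TGACGTCA, which 1.79% of windows hold. A match is a description of letters and not a bound site.

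The GFP library held 13575 barcodes with 150348319 UMIs and the whole epithelium library 13967 barcodes with 164185392 UMIs. The matrices were assigned to the groups by their number of columns, and every direction between the libraries would turn with the reverse assignment. The filter, which asked for 1000 UMIs, 500 genes and at most 25% mitochondrial UMIs, kept 42.5% and 55.6% of them. Enterochromaffin cells were shallower than kept cells at large, with a median of 6308 UMIs in the GFP library and 6565 in the whole epithelium library, against 15821 and 14160 over all kept cells of those libraries. Their median mitochondrial share was 8.35% in the GFP library and 6.52% in the whole epithelium library. A single GFP cell with 146153 UMIs and 9128 genes held 20.6% of the UMIs of its group, while the next deepest had 43076. That cell also held 1607 UMIs of the goblet cell mucin Muc2 and 1077 of the colonocyte enzyme Car1 beside 25 of Tph1. Several results whose call or direction rests on it are given without it too. The libraries shared 60 barcodes, of which 19 were kept in both, and no enterochromaffin barcode of either library was listed in the other.

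Enterochromaffin cells made up 0.988% of kept cells in the GFP library (57 of 5767, exact Clopper-Pearson interval 0.749 to 1.28) and 1.34% in the whole epithelium library (104 of 7762, 1.10 to 1.62). The difference was -0.35 percentage points, and the 2 intervals overlap. Cells meeting the rule were thus present in the sorted library as well as in the unsorted one.

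The plot of Tph1 against Chga shows the cells at the edge of the rule. Cells with either gene at exactly 2 UMIs numbered 12 in the GFP library and 15 in the whole epithelium library, with a median of 7 and 6 UMIs of Chgb, which the rule did not use. The 45 GFP cells and 89 whole epithelium cells with both genes at 3 or more had a median of 152 and 129 UMIs of Chgb. Just outside the rule, with 2 or more Chga UMIs but 1 of Tph1, were 8 GFP cells and 16 whole epithelium cells with a median of 10 and 7.5. Cells with 2 or more Chga UMIs and none of Tph1 numbered 42 and 103 in those libraries, with a median of 3 Chgb UMIs in each.

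**Figure D1:**
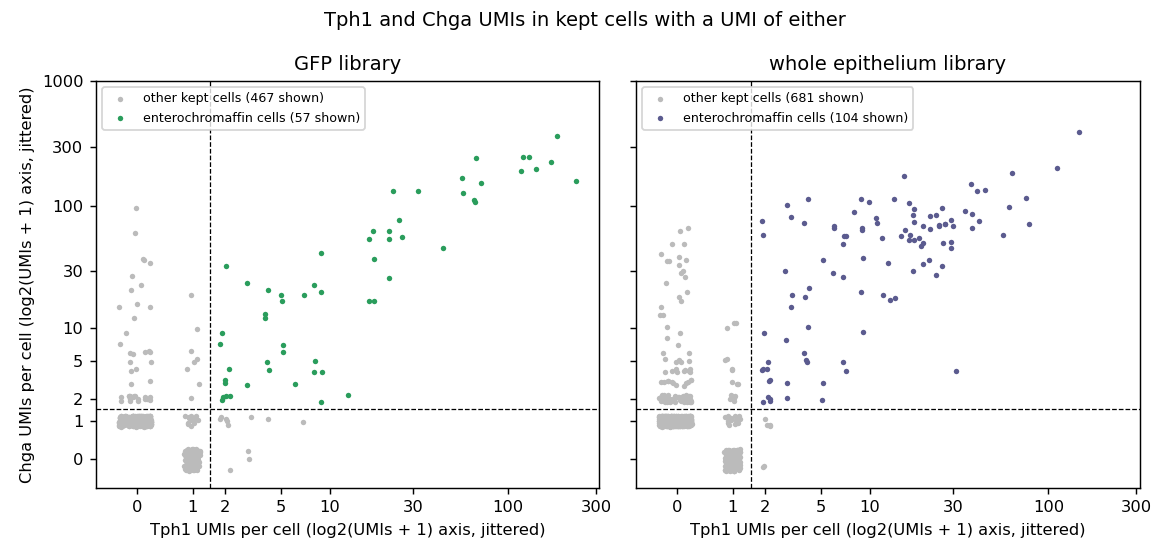
UMIs of Tph1 (x axis) and Chga (y axis) per kept cell with a UMI of either gene, on log2(UMIs + 1) axes with a small random offset, in the GFP library (left) and the whole epithelium library (right). Dashed lines mark the rule of 2 UMIs, and coloured points are the 57 and 104 enterochromaffin cells.

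The third marker was found in all of the cells, though at low counts in most of those at the edge of the rule. Chgb had a UMI in 57 of 57 GFP cells and 104 of 104 whole epithelium cells, against 15.6% and 13.0% of the other kept cells of those libraries. Its level in CPM, that is UMIs scaled to 1000000 UMIs of the pooled cells, was 17559 in enterochromaffin cells and 23.7 in other kept cells of the GFP library, and 15294 and 15.8 in those of the whole epithelium library. Per cell, Chgb ran over 1 to 1668 UMIs with a median of 66 in the GFP library and over 1 to 2003 with a median of 111.5 in the whole epithelium library. Tph1 ran over 2 to 235 UMIs with a median of 9 in GFP cells and over 2 to 147 with a median of 12 in whole epithelium cells. Chga ran over 2 to 362 with a median of 21 and over 2 to 395 with a median of 56. These ranges overlap over most of their length.

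Against all other kept cells of their own library, 1229 of 13573 genes were at least 2-fold higher with an interval that leaves out 0 in the GFP library (9.05%), and 2208 of 14459 in the whole epithelium library (15.3%). Another 1.81% and 2.01% were lower by the same rule. All of these describe cells that were picked by 2 genes, and nothing is read from their number. Behind Tph1 the genes with the highest ratio in both libraries were Cpb2, a plasma carboxypeptidase, Gsdma, a gasdermin, Chgb, Wif1, a secreted inhibitor of Wnt signalling, and the potassium channel gene Kcnc1. Cpb2 was at 43.6 CPM in enterochromaffin cells of the GFP library and 41.0 in those of the whole epithelium library, against 0.0371 and 0.0292 in the other cells. Wif1 was at 215 and 206 CPM, against 0.297 and 0.117. Further down stood Runx1t1, Rab3c, Map1b, Pcsk1n, Amigo2, Lmx1a, Kif1a, Myt1, Piezo2, Nefm, Snap25, Slc18a1 and Man1c1, many of which nerve cells also use.

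Slc18a1 was found in 75.4% of GFP cells and 76.9% of whole epithelium cells, against 1.77% and 1.72% of colonocyte-rule cells. Colonocyte-rule cells are kept cells with at least 5 UMIs over Car1, Slc26a3 and Krt20 and none of Tph1 or Chga, given for comparison. They numbered 5211 of 5767 kept GFP cells and 5070 of 7762 kept whole epithelium cells, at a median of 15912 and 15439.5 UMIs, and 65 and 144 of them held at least 2 UMIs of the L cell hormone gene Gcg. Their shares are thus not a measure of free RNA alone. The level of Slc18a1 was 233 CPM in the GFP library and 279 CPM in the whole epithelium library. Ddc had a UMI in 77.2% and 80.8% of enterochromaffin cells, and in 30.2% and 30.5% of the deeper colonocyte-rule cells, at 321 and 599 CPM in enterochromaffin cells. The transporter of nerve cells, Slc18a2, had 1 UMI in GFP and 5 UMIs in whole epithelium enterochromaffin cells. Gch1, which starts the synthesis of the enzyme cofactor tetrahydrobiopterin, was at 88.6 and 100 CPM.

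**Figure D2:**
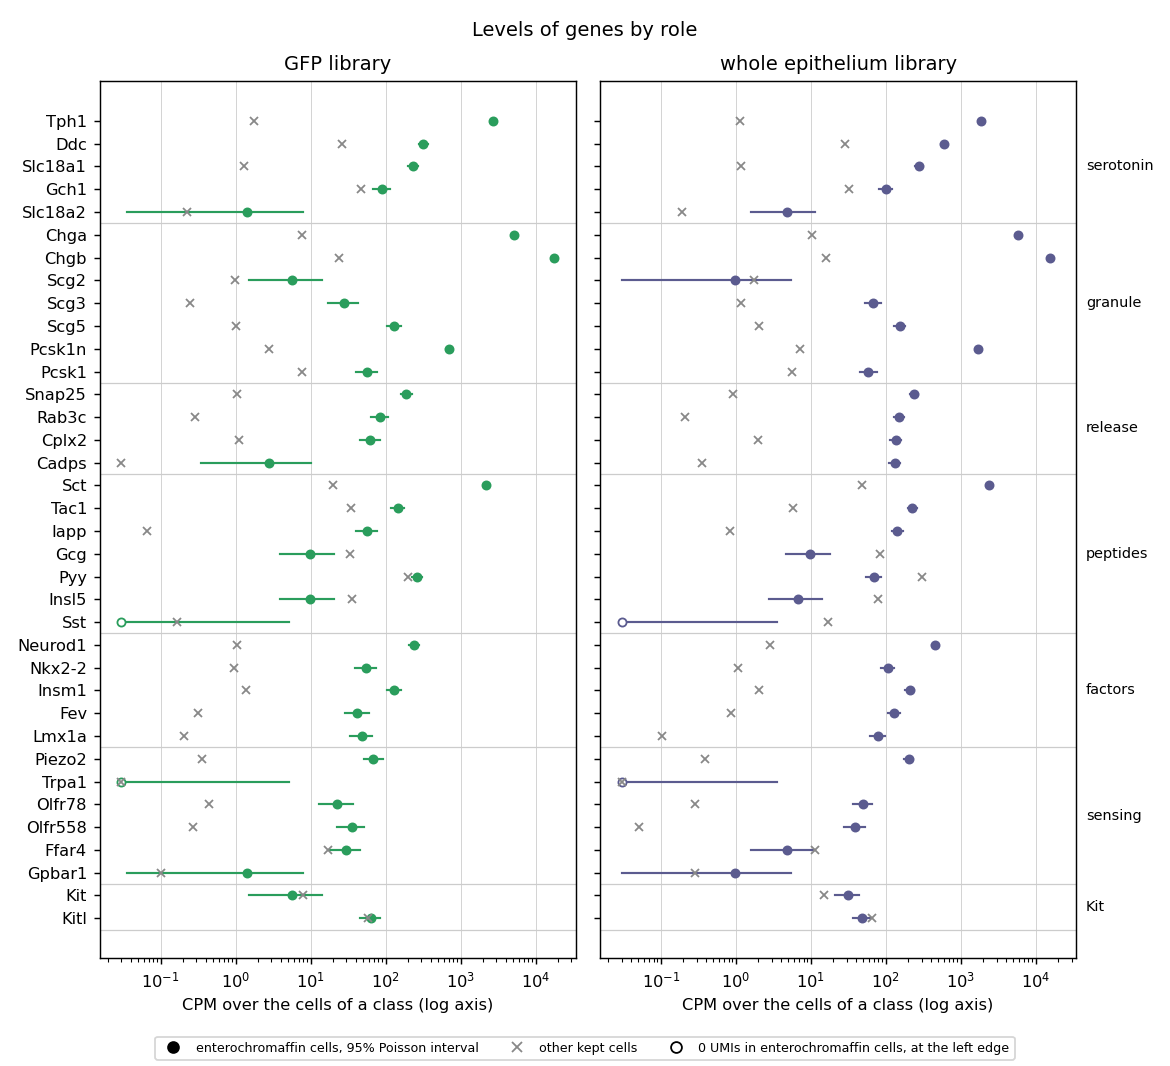
Level of genes by role in CPM (x axis, log scale) in the GFP library (left) and the whole epithelium library (right). Dots are enterochromaffin cells with exact 95% Poisson intervals, crosses are the other kept cells, and values under 0.03 CPM are drawn at the left edge. Tph1, Slc18a1, Chgb and most factors lie far right of the crosses in both panels.

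For a comparison with cells that hold peptide hormone RNA, L-type cells were set as kept cells with at least 2 UMIs of Gcg or Insl5 that did not meet the enterochromaffin rule. They numbered 138 in the GFP library and 278 in the whole epithelium library. Of these, 111 (80.4%) and 160 (57.6%) also met the colonocyte rule, and 35.5% and 84.2% had at least 2 UMIs of Pyy, which L cells also make. Many cells of the class, above all in the GFP library, are therefore not shown to be hormone cells. Between enterochromaffin cells and them, 5.87% of 9283 genes were higher and 4.00% lower in the GFP library, and 11.1% of 10053 higher and 2.54% lower in the whole epithelium library, by the same rule. Both classes were cut by hormone or granule genes, so these are descriptions. Lmx1a, a homeobox factor of serotonin cells, was at 47.8 CPM in enterochromaffin cells and 1.28 in L-type cells of the GFP library, and at 78.0 and 0.359 in those of the whole epithelium library. Etv1 ran the other way, at 5.62 and 92.6 CPM in the GFP library and at 6.83 and 115 CPM in the whole epithelium library. The receptor gene Olfr558, which senses short branched fatty acids, was at 35.2 and 39.0 CPM in the enterochromaffin cells of those libraries and had no UMI in L-type cells of either.

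A share of 12.3% of GFP enterochromaffin cells and 7.69% of whole epithelium ones had a UMI of the proglucagon gene Gcg, against 11.9% and 8.56% of the deeper colonocyte-rule cells. With cells thinned to 2000 UMIs the shares were 5.45% and 2.08% in enterochromaffin cells, with intervals of 1.14 to 15.1 and 0.253 to 7.32, and 2.48% and 3.01% in colonocyte-rule cells. Insl5, an insulin-like peptide of the distal gut, was at 10.5% and 4.81%, against 9.88% and 6.43%. Pyy, the gene of peptide YY, had a UMI in 43.9% of GFP cells and 22.1% of whole epithelium cells, and in 46.6% and 18.9% of colonocyte-rule cells. Thinned, Pyy was left in 20.0% and 10.4% of enterochromaffin cells, against 11.5% and 6.28% of colonocyte-rule cells. Its 186 UMIs in GFP cells included 146 in a single cell. Pyy passed as higher in the GFP library (log2 ratio 1.92, 1.51 to 2.33), but turned to -0.40 in cells with 5 UMIs of both rule genes. No somatostatin (Sst) UMI was found in any enterochromaffin cell of either library.

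Secretin and tachykinin RNA were each found in part of the cells. Some cells held both, but Sct was found less often with a Tac1 UMI than without it in both libraries. Of cells with a Tac1 UMI, 12 of 24 in the GFP library and 31 of 45 in the whole epithelium library also had one of Sct, as did 23 of 33 and 49 of 59 cells without Tac1. Sct had a UMI in 35 of 57 GFP cells (61.4%) and 80 of 104 whole epithelium cells (76.9%), against 18.7% and 19.3% of colonocyte-rule cells, and reached 284 and 395 UMIs in a single cell. Tac1 had a UMI in 24 GFP cells (42.1%) and 45 whole epithelium cells (43.3%). Its share in colonocyte-rule cells was 21.9% in the GFP library and 6.02% in the whole epithelium library. With each cell thinned to 2000 UMIs, Tac1 was left in 21.8% of GFP and 27.1% of whole epithelium enterochromaffin cells, against 6.17% and 0.894% of thinned colonocyte-rule cells. Iapp, the gene of amylin, was found in 2 GFP cells, with 38 of its 40 UMIs in a single cell, and in 19 whole epithelium cells with 146 UMIs.

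Cells with a UMI of Piezo2, the channel of touch-sensitive enterochromaffin cells, differed from the rest in several genes, in both libraries for some and in a single library for others. They were 13 of 57 in the GFP library (22.8%, 12.7 to 35.8) and 34 of 104 in the whole epithelium library (32.7%, 23.8 to 42.6), against 0.249% and 0.217% of colonocyte-rule cells. The split was looked at after the values of these cells had been seen and carries no test. Cells with Piezo2 were somewhat deeper, with a median of 6845 UMIs in the GFP library and 8155.5 in the whole epithelium library, against 6294.5 and 5107.5 in cells without it.

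Hoxb13, a homeobox gene of the distal gut, had a UMI in 10 of 13 cells with Piezo2 and 12 of 44 without it in the GFP library, and in 31 of 34 and 21 of 70 in the whole epithelium library. Its level was 453 CPM with Piezo2 and 56.0 without it in the GFP library (log2 ratio 3.02, 2.37 to 3.69), and 411 and 61.5 CPM in the whole epithelium library (2.74, 2.22 to 3.29). Hoxa9 and Hoxa10, also genes of posterior identity, leaned the same way, with Hoxa9 at 148 CPM with Piezo2 and 30.5 without it in the GFP library, and at 92.1 and 6.65 CPM in the whole epithelium library. Fev, the serotonin cell factor also called Pet1, was at 124 and 25.4 CPM in the GFP library and at 191 and 84.8 CPM in the whole epithelium library. Ddc followed it, at 881 and 205 CPM and at 907 and 382 CPM.

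Among genes ranked in the whole epithelium library, 487 of 6715 (7.25%) were higher and 217 (3.23%) lower in cells with Piezo2. In the GFP library 6.06% of 5013 genes were higher and 3.33% lower. The 10 highest among those with a UMI in at least 40% of cells with Piezo2 were Baiap3, Negr1, Rtn1, Pla2g2f, Grin3a, Hoxa10, Hoxa9, Cdo1, Sulf1 and Dach1. In the GFP library, which was not used for that ranking, 7 of these 10 also had a positive ratio. Without the deepest GFP cell these 7 ratios were lower but stayed positive, from 1.10 for Hoxa10 to 4.68 for Sulf1. The share of all genes with a positive ratio was not counted, so nothing is read from the 7. Rtn1, a membrane protein of the endoplasmic reticulum in neuroendocrine cells, was at 124 CPM with Piezo2 and 15.3 without it in the GFP library (3.02, 1.73 to 4.39), and at 206 and 9.97 CPM in the whole epithelium library (4.37, 3.19 to 5.85). The secreted phospholipase gene Pla2g2f was at 107 and 8.48 CPM in the GFP library (3.66, 2.08 to 5.50), and at 102 and 4.99 CPM in the whole epithelium library (4.35, 2.71 to 6.68). Cdo1 ran the other way in the GFP library, at 8.24 and 33.9 CPM (-2.04, -7.41 to 0.60), Negr1 had no UMI there, and Baiap3 had 3 UMIs with Piezo2 and 1 without it.

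Secretin RNA was much lower in cells with Piezo2 in the whole epithelium library. Sct was at 253 CPM in cells with Piezo2 and 3904 in cells without it there (log2 ratio -3.95, -4.24 to -3.67), and at 2405 and 2179 CPM in the GFP library (0.14, -0.05 to 0.33). Without the deepest GFP cell, which has no Piezo2 UMI, Sct was at 2405 and 2892 CPM in the GFP library (-0.27, -0.45 to -0.08), a turn of direction. Of the 292 Sct UMIs in GFP cells with Piezo2, 1 cell held 154 and another 104. The level with Piezo2 in that library thus rests on few cells. Cpb2 was in 1 of 13 cells with Piezo2 and 14 of 44 without it in the GFP library, and in 2 of 34 and 27 of 70 in the whole epithelium library. Tbx3, a T-box factor, was at 24.7 and 86.5 CPM in the GFP library and at 4.72 and 113 CPM in the whole epithelium library. The 10 genes lowest with Piezo2 also included Reg3b and Reg3g, antimicrobial lectins, and Muc2, Zg16, Fcgbp and Tff3, which are goblet cell products. Of these 10, 7 also had a negative ratio in the GFP library. Sct and Gm26917, also of the 10, turned negative there without the deepest GFP cell (-0.27 and -0.06). Nothing is read from that count. The part of goblet cell RNA in these differences was not tested. Tph1 itself was at 2998 and 2671 CPM in the GFP library and at 1517 and 2139 CPM in the whole epithelium library. Without the deepest GFP cell Tph1 was at 2998 and 3494 CPM in the GFP library (-0.22, -0.39 to -0.06), a turn of direction.

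Tac1 was found on both sides of the split, as 5 of 13 cells with it and 19 of 44 cells without it in the GFP library, and 19 of 34 and 26 of 70 in the whole epithelium library, had a Tac1 UMI. Olfr78, a receptor for lactate and short-chain fatty acids, was in 8 GFP cells and 25 whole epithelium cells.

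**Figure D3:**
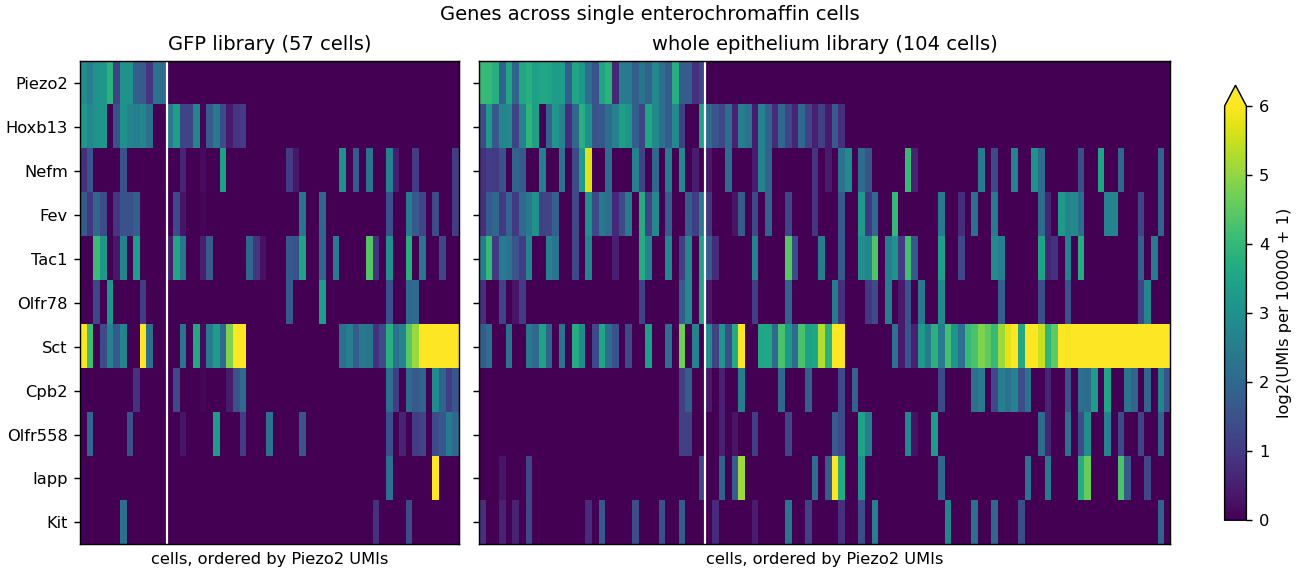
Each column is an enterochromaffin cell of the GFP library (left, 57 cells) or the whole epithelium library (right, 104 cells), ordered by UMIs of Piezo2, then of Hoxb13 and then of Sct, and colour gives log2(UMIs per 10000 UMIs of the cell + 1), with values over 6 in the top colour. White lines end the 13 and 34 cells with a Piezo2 UMI, which hold few Cpb2 UMIs in both panels.

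The cells of the 2 libraries were then compared, with UMIs summed over the enterochromaffin cells of each and a gene called when its CPM differed at least 2-fold and the interval of the log2 ratio left out 0. Of 8378 genes with at least 20 UMIs, 209 were higher in the GFP library (2.49%) and 521 lower (6.22%). These shares are the background for the list counts that follow. When ratios were centred on their median over all genes instead of on the totals, 273 were higher and 427 lower. The median ratio was -0.09 on the log2 scale. Beside each gene list the median ratio in the other kept cells of the same libraries is given where it was large too.

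Of 10 serotonin synthesis genes that could be compared 1 was called, where 2.49% of all genes were higher and 6.22% lower. Nothing is read from that count. The called gene was Slc3a2, a subunit of amino acid transporters that was lower in the GFP library (-1.47, -2.43 to -0.61). Tph1 was at 2727 CPM in GFP cells and 1882 CPM in whole epithelium cells (0.53, 0.44 to 0.63), short of 2-fold. Ddc had a ratio of -0.90 (-1.13 to -0.68) and Slc18a1 of -0.26 (-0.54 to 0.02). None of the 4 compared genes of storage and removal was called, among them Maoa, which breaks serotonin down, at 405 and 314 CPM. Of 6 peptide hormone genes Ppy and Pyy were higher and Iapp lower in the GFP library, all 3 with most of their GFP UMIs in a single cell.

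Granule and release genes had lower medians in the GFP library. Of 17 granin and granule cargo genes 5 were lower and none higher, where 6.22% of all genes were lower and 2.49% higher. Their median ratio was -0.65, and -0.72 in the other kept cells. Pcsk1n, an inhibitor of the prohormone convertase, had 497 UMIs in 30 of 57 GFP cells and 1755 in 92 of 104 whole epithelium cells (-1.29, -1.44 to -1.15). The others were Scg3 (-1.26), Ica1 (-1.16), Ptprn (-1.06) and Fam183b (-1.01). Without the deepest GFP cell none of the 17 was called, and the ratio of Pcsk1n was -0.96. Chga was at 5148 and 5884 CPM (-0.19, -0.25 to -0.13) and Chgb at 0.20 (0.17 to 0.23), neither of them called. Of 22 genes of regulated exocytosis 5 were lower, and 2 without the deepest cell, at a median of -0.73 and of 0.08 in the other kept cells.

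The exocytosis gene Cadps, whose protein primes dense-core granules for release, stood apart from that list. It had 2 UMIs, both in 1 of 57 GFP cells (1.75%), and 135 UMIs in 65 of 104 whole epithelium cells (62.5%), a ratio of -5.55 (-8.61 to -3.67). The other kept cells had a Cadps UMI in 0.0175% of GFP cells and 0.522% of whole epithelium cells, with a ratio of -5.24. The gap was thus of like size in and outside enterochromaffin cells.

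Neuronal adhesion and cytoskeleton genes were lower more often, 9 of 16 with none higher and a median of -1.40, where 6.22% of all genes were lower. Without the deepest cell 9 were lower and 1 higher. Peg3, an imprinted zinc finger gene, had 0 UMIs in 57 GFP cells and 173 in 52 of 104 whole epithelium cells, at least 5.32 lower on the log2 scale against a floor of 3 UMIs. The neurofilament gene Nefm was at 36.6 and 169 CPM (-2.21, -2.86 to -1.61), but 73 of its 173 whole epithelium UMIs lay in 1 cell. Without that cell, a choice made after seeing the data, the ratio of Nefm was -1.44 (-2.12 to -0.80). Nefl had 0 and 51 UMIs, of which 17 lay in 1 cell. The imprinted RNA Meg3 had 0 and 39 UMIs, of which 23 lay in 1 cell and 16 in the rest. In the other kept cells the median ratio of the same list was -1.06.

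Of 23 enteroendocrine factors 4 were lower and 1 higher in the GFP library, where 6.22% of all genes were lower and 2.49% higher. Egr3 was at 9.84 and 170 CPM (-4.11, -5.44 to -3.03) and Fev at 42.2 and 129 CPM (-1.61, -2.23 to -1.03). The endoderm factor Foxa2 had a ratio of -1.14 (-2.21 to -0.17). Atoh1, which sets the secretory lineage, was higher with 19 UMIs in 7 GFP cells and 9 in 6 whole epithelium cells (1.61, 0.39 to 2.93). With 1 UMI of both rule genes, after thinning, or after subtraction of free RNA, no factor was called higher. That subtraction left 16 and 2 UMIs of Atoh1. The general factors Neurod1 (-0.92), Nkx2-2 (-0.96), Insm1 (-0.68) and Lmx1a (-0.71) were not called.

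Of 10 sensor genes 1 was called higher and 2 lower, where 2.49% of all genes were higher and 6.22% lower. Without the deepest cell 1 of 8 was higher and 1 lower. Piezo2 had 49 UMIs in GFP cells and 208 in whole epithelium cells, or 68.9 and 203 CPM (-1.56, -2.04 to -1.10). With equal weight for each cell its ratio was -0.90 and no longer 2-fold, and after thinning -0.44. Olfr78 was lower at 22.5 and 49.8 CPM (-1.14, -2.05 to -0.31), and at -0.81 and not called without the deepest cell. Ffar4, a receptor for long-chain fatty acids, was higher on 21 and 5 UMIs (2.60, 1.15 to 4.36), but its share of 19.3% in GFP cells was near the 18.1% of colonocyte-rule cells, and it was not called without the deepest cell (2.00). Ffar2, a receptor for short-chain fatty acids, had a UMI in 63.2% and 41.3% of enterochromaffin cells (0.86, 0.44 to 1.29). No UMI of the irritant channel Trpa1 was found in 57 GFP and 104 whole epithelium cells, which at a limit of 3 counts allows a share of cells with a UMI of up to 5.26% and 2.88%.

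Of 12 channel genes 3 were lower and none higher, where 6.22% of all genes were lower and 2.49% higher. Among the 3 were the sodium channel Scn3a (-1.08, -1.47 to -0.70) and the potassium channel Kcnb2 (-1.41, -2.25 to -0.65). Without the deepest cell 2 of 10 were lower. The ratio of Scn3a ran from -1.40 to -0.35 over the other settings tried, so its call did not hold in all of them. Scn3a still had a UMI in 63.2% of GFP cells and 61.5% of whole epithelium cells, and the median of the list was -0.64.

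Kit, the receptor gene that drives the recombinase of the GFP library (chromosome 5, 75574916 to 75656722, plus strand, GRCm38), was lower in its enterochromaffin cells. It had 4 UMIs in 3 of 57 GFP cells (5.26%) and 32 UMIs in 21 of 104 whole epithelium cells (20.2%), with a ratio of -2.47 (-4.43 to -0.98). Kit was also lower in the other kept cells of the GFP library, with a ratio of -0.94. There 10.0% of GFP cells and 12.2% of whole epithelium cells had a Kit UMI. The deeper colonocyte-rule cells had a Kit UMI in 9.77% of GFP cells and 8.24% of whole epithelium cells. After thinning, Kit was left in 1.82% of GFP and 4.17% of whole epithelium enterochromaffin cells (0.0460 to 9.72 and 1.15 to 10.3), intervals that overlap, and the thinned ratio of -1.20 was not called. A list of 12 mast cell markers, which holds Kit itself, had 5 UMIs in GFP and 42 in whole epithelium enterochromaffin cells. Kit gave 4 and 32 of these. Of the 12 markers 9 had no UMI in enterochromaffin cells of either library, Cpa3, Mcpt2, Tpsb2, Fcer1a and Hdc among them. Of 10 genes of Kit and its partners 2 were higher, the kinase Lyn (1.35) and the phosphatase Ptpn6 (1.19), and 1 lower, Kit itself. Over all genes 2.49% were higher and 6.22% lower. Without the deepest GFP cell 1 of 9 genes of that list was higher and 1 lower. Kitl, the gene of the Kit ligand, was at 63.3 and 48.8 CPM (0.38, -0.24 to 0.99).

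**Figure D4:**
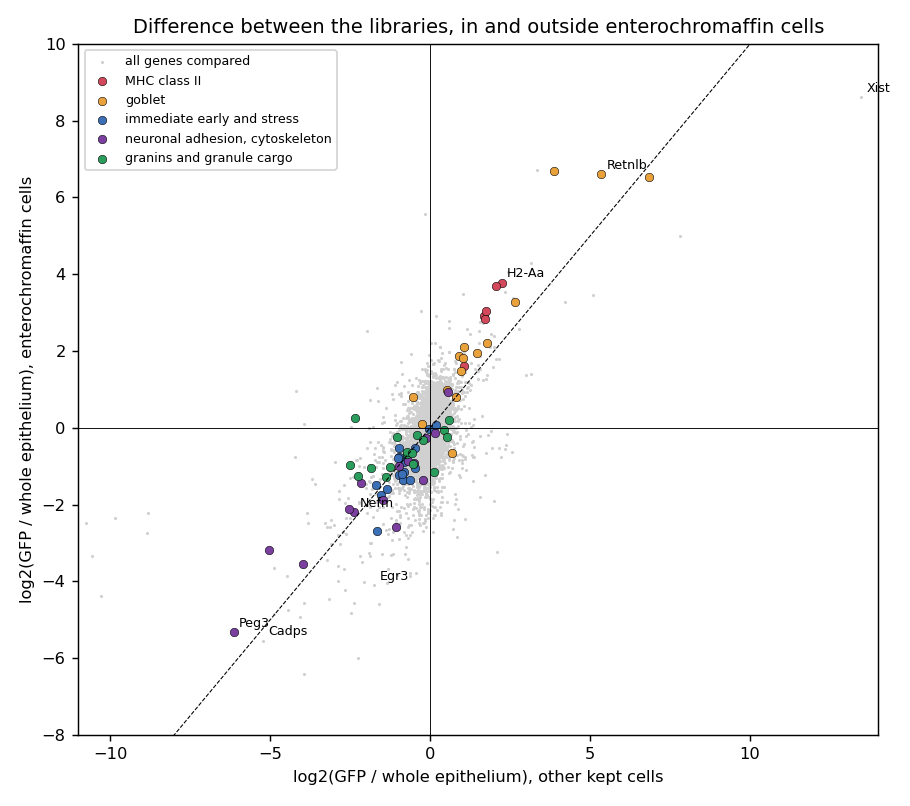
Log2 ratio of the GFP over the whole epithelium library in enterochromaffin cells (y axis) against the same ratio in the other kept cells (x axis), 1 point for each of the genes compared that have both ratios. Coloured points are gene lists and the dashed line is equality. MHC class II and goblet genes lie at the upper right, and Cadps and Peg3 at the lower left near the line.

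All 6 compared MHC class II genes, which present antigen and can be switched on in epithelium, were higher in GFP enterochromaffin cells, with a median ratio of 2.99 and 1.73 in the other kept cells. Cd74, the invariant chain, had 653 UMIs in 50 of 57 GFP cells and 124 in 28 of 104 whole epithelium cells (2.92, 2.65 to 3.21). H2-Aa was at 240 and 17.6 CPM (3.78, 3.07 to 4.56). Colonocyte-rule cells had a Cd74 UMI in 91.4% of GFP cells and 46.6% of whole epithelium cells, against 87.7% and 26.9% of the shallower enterochromaffin cells. Other kept cells with under 3000 UMIs averaged 1.75 Cd74 UMIs in the GFP library and 0.449 in the whole epithelium library. After subtraction of those levels as free RNA, 553 and 77 Cd74 UMIs were left, and 5 of 5 MHC class II genes compared were higher, with a median of 3.45. Expression in the cells and free RNA cannot be told apart by these values.

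Goblet cell genes followed, with 10 of 15 higher in GFP enterochromaffin cells and none lower, at a median of 1.86 and of 1.04 in the other kept cells. Retnlb, a goblet cell product, had at least 2 UMIs in every one of the 57 GFP cells, with a median of 22, and a UMI in 35 of 104 whole epithelium cells with a median of 0 (6.61, 6.26 to 6.98). Other kept GFP cells with under 3000 UMIs averaged 23.9 Retnlb UMIs, and those of the whole epithelium library 0.456. Colonocyte-rule cells had a Retnlb UMI in 99.9% of GFP cells and 32.0% of whole epithelium cells. After subtraction of the level in the shallow cells, 3039 and 18 Retnlb UMIs were left, and 12 of 14 goblet genes were higher and 1 lower, with a median of 2.85. The part of free RNA and of goblet cells captured with them cannot be told apart here. Summed over the goblet list, GFP cells held 45 to 4629 UMIs with a median of 78, and whole epithelium cells 2 to 1336 with a median of 14.5. Of 15 colonocyte genes 4 were higher and 2 lower, with a median of -0.13, where 2.49% of all genes were higher and 6.22% lower. Clca1, Ang4, Fcgbp and Lpo belong to the 12 genes with the highest ratios, as do Mptx1, with 997 of 1551 GFP UMIs in 1 cell, and the hormone gene Ppy, with 133 of 145 in 1 cell.

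Immediate early and stress genes were lower in GFP cells, 10 of 18 with none higher, where 6.22% of all genes were lower. Their median was -1.09, and -0.86 in the other kept cells. Nr4a1 was at 47.8 and 309 CPM (-2.69, -3.25 to -2.18), Atf3 at 301 and 1010 CPM (-1.75, -1.97 to -1.53) and Egr1 at 588 and 1509 CPM (-1.36, -1.52 to -1.20). Fos, at 1263 and 2280 CPM, was not called (-0.85, -0.97 to -0.74). These genes answer to the dissociation of tissue as well as to cell activity, and their part in other differences was not tested. Of 17 interferon response genes 8 were lower and none higher, at a median of -0.83 and of -1.18 in the other cells. Ifi27l2b was at 12.7 and 384 CPM (-4.92, -6.06 to -3.99). With cells thinned to 2000 UMIs, 2 of 11 interferon genes were lower and 1 higher, at a median of -0.01.

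Among the 12 lowest ratios were also Hmgn3, a nucleosome-binding protein with 1 UMI in GFP cells and 122 in whole epithelium cells (-6.40, -11.72 to -3.90), and Gdf15, a stress cytokine (-6.00, -11.32 to -3.48). Pex5l, a partner of pacemaker channels, had a ratio of -4.56 and Fabp6, an ileal bile acid binding protein, of -3.98. Xist, the RNA that coats an inactive X chromosome, had 815 UMIs in 56 of 57 GFP cells and 0 in 104 whole epithelium cells. The Y-linked gene Ddx3y had 0 and 91 UMIs. Sex-linked genes thus separate the libraries, and what goes with them cannot be told apart from the sort or the tamoxifen.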

How the data were processed

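Gene by cell tables of UMI counts were deposited by the authors for 1 library of GFP-sorted and 1 library of whole colon epithelium. Per the submitters' processing notes they were made with Cell Ranger 2.1.1 on build mm10, while the file headers name version 3.1.0. Per the labels' protocols, crypts were dissociated and libraries were made with droplet 3' chemistry. The deposited matrices and barcode lists are crossed in their records, so each matrix was matched to its barcodes by the number of columns. No column was without a sample.

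The enterochromaffin cells and all gene lists were chosen with earlier results of these data known. Counts were summed over cells and divided by the library's total over the same cells (CPM). Ratios carry exact conditional binomial intervals, levels exact Poisson and shares exact Clopper-Pearson intervals at 95%. A share of 0 is given with the limit that 3 counts allow. They cover counting error only, since each group is 1 library and no test over samples is possible. A gene was compared with at least 20 UMIs over both groups and called at 2-fold with an interval that leaves out 0. Against a group at 0 the floor was 3 UMIs. Thinning drew 2000 UMIs per cell.

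Genes named beyond the lists were the 12 highest and 12 lowest called ratios with at least 50 UMIs and a UMI in at least 20% of cells of the higher library, and the 20 highest over other cells. The Piezo2 split and its 10 genes each way were chosen after the values were seen. Doublets were not removed and no caller was run. No GFP or Cre feature was among the 31053 genes, so the sort could not be checked. On simulated counts of 8252 genes, 99.5% of 200 genes changed 4-fold were recovered and 1.60% of the unchanged were called. Those counts were Poisson draws from the pooled sums, with the changed genes taken from genes with at least 100 UMIs. They hold no spread between cells, so neither share is an error rate for the measured cells. Python 3.11.15, numpy 2.4.6, scipy 1.17.1 and pandas 2.3.3 were used. Some genes that the counts include are not reported here.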

Additional observations from a re-analysis of the deposited data

Results flagged for a closer look

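Barcodes left out by the filter also met the enterochromaffin rule of 2 UMIs of Tph1 and of Chga. There were 8 of them in the GFP library and 23 in the whole epithelium library. All 8 in the GFP library and 19 of those in the whole epithelium library were over the mitochondrial limit of 25%. Their median Chgb count was 157 UMIs in the GFP library and 24 UMIs in the whole epithelium library.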

How the results depend on the processing

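The GFP library had the lower share of enterochromaffin cells under each setting tried, by 0.177 to 0.547 percentage points. With 1 UMI of both genes the shares were 1.51% in the GFP library and 1.78% in the whole epithelium library, with 5 UMIs 0.607% and 0.915%, with no mitochondrial limit 0.479% and 1.03%, and with cells thinned to 2000 UMIs 0.749% and 0.926%. Genes called higher and lower in GFP cells numbered 102 and 142 after thinning and 59 and 91 with at least 100 UMIs per gene, where fewer genes were compared, and 209 and 473 without the deepest GFP cell, a setting chosen after seeing the data. Pyy turned to -0.40 with 5 UMIs of both genes and to -0.79 with at most 10% mitochondrial UMIs, and the cause was not tested. Over 77 named genes and 12 settings, 790 values kept their call or, for genes not called at first, stayed within the first interval. Another 73 values of genes not called at first left that interval. Of values of called genes, 57 were no longer called and 2 reversed. No paired analysis was possible because each group is 1 library. Depth limits genes with few UMIs over 57 and 104 cells.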
